A study of Mus musculus with 12 samples.

Results

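Retinoic acid genes were followed in the embryonic mouse cortex through 9 genes that cover its synthesis (Aldh1a2 and Aldh1a3), uptake of its precursor (Stra6), its binding in the cytoplasm (Crabp1 and Crabp2), its breakdown (Cyp26b1) and nuclear receptors of the retinoid group (Rarb, Rxrg and Rorb). Every probe set annotated to 1 of these genes alone was taken, without regard to its values, which gave 13 of the 45101 probe sets on the array, for 9 of the 18194 genes that probe sets name alone. The genes themselves were chosen with earlier results of these data known. Aldh1a3 and Rorb have 3 probe sets each and the other 7 genes have 1 each. Of the 13, 7 probe sets of 5 genes (Crabp1, Crabp2, Cyp26b1, Stra6 and Rorb) had values high enough to be tested. The remaining 6, of Aldh1a2, Aldh1a3, Rarb and Rxrg, lay under the filter on low values.

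Retinoic acid is made from vitamin A in consecutive oxidations, the last of them by the retinaldehyde dehydrogenases of the Aldh1a family. CRABP proteins hold it in the cytoplasm, enzymes of the Cyp26 family break it down, and inside the nucleus it binds RAR receptors that act on DNA as pairs with RXR receptors. In the developing forebrain the meninges are a known source, and the receptor-related gene Rorb, whose product belongs to the ROR family and is not a classical retinoic acid receptor, is known as a marker of layer 4 neurons of sensory cortex at later stages.

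Cortex was taken at embryonic day 14 from AP2gamma knockout mice (KO), named for the transcription factor encoded by Tfap2c, and from wild-type control mice (WT), and each array held either a rostral or a caudal piece. The 4 groups held 3 arrays each, and each of the 12 arrays carried its own animal number: 4, 6 and 14 for caudal WT, 1, 2 and 13 for caudal KO, 10, 12 and 16 for rostral WT, and 7, 8 and 15 for rostral KO. For each array, 400 ng of total RNA had been amplified and labelled with biotin. The knockout allele, any Cre driver and whether pieces of both regions came from the same embryos are not given in the sources used here. Values below are listed in that order of animals, on the log2 scale of the deposited table.

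The values of all 12 arrays had medians of 5.21 or 5.22. RNA of Tfap2c itself differed by -0.94 to -0.88 between KO and WT over its 3 probe sets, averaged over both regions. The limma adjusted p was 0.043 for 1 of them and 0.062 for the others. By region the differences were -1.22 to -1.06 in caudal and -0.71 to -0.59 in rostral cortex. The smaller rostral size was not called as a difference between the regional effects. Where these probe sets lie relative to the deleted part was not examined. Xist RNA was high on caudal WT animal 6 (11.32) and rostral WT animal 12 (11.89) and at most 5.48 on the other 10 arrays. The label of cortex was checked on 9 tested dorsal cortex markers, whose mean lay between 9.99 and 10.49 on every array, and that of region on Nr2f1, a caudally graded transcription factor, which was higher caudally by 2.03 ± 0.18 (SE, adjusted p = 0.00017, limma). Of the 4 caudal markers listed, 3 were called higher caudally, and Wnt8b went the other way without being called (-1.14 ± 0.44). Rostral KO animal 15 stood apart in 5 tested markers of the meninges, with a mean of 8.40 against 5.59 to 6.51 on the other 11 arrays. The same array had the highest means of ganglionic eminence and striatum (7.57), rostral cortex (9.03) and vessel markers (7.25). Its mean of the caudal cortex markers (7.10) was the lowest. Caudal WT animal 6 had the highest mean of 3 tested choroid plexus markers (7.35, against 2.44 to 6.37). Caudal KO animal 13 had the lowest mean of 4 tested thalamic markers (5.84, against 6.62 to 7.19) and, among the caudal arrays, of the caudal cortex markers (8.26).

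The promoters of the members show which of them carry sequence elements tied to the pathway or to AP2 proteins. RefSeq promoter windows on GRCm38.p6, from 250 bases before to 50 after a transcript start, were matched by symbol for 7 of the 9 genes, with 12 windows in all. Crabp2 and Aldh1a3 had no entry. The Rarb window is shown because it holds the direct repeat with 5-base spacing (DR5) of retinoic acid response elements, in capitals, at chr14:16575513-16575529, positions -53 to -37 relative to the start. The stretch shown is chr14:16575477-16575726 on the minus strand. It lies before a transcript start inside the gene's annotated span (16430839 to 17082331).
Rarb: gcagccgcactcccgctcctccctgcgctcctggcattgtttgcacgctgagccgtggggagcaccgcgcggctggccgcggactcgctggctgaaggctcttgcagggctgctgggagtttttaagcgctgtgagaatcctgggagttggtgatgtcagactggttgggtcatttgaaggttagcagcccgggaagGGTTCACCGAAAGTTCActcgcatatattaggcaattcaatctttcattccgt
The DR5 letters were found in 32 of 32851 windows of the mouse genome (0.1%) and in no other member. The repeat with 2-base spacing (DR2) was found in 88 windows (0.27%) and in no member. Both strands were searched, and a match describes letters only.

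The AP2-type letters GCCNNNGGC, which read the same on both strands, were found in 5450 of 32851 windows (16.59%) and in 2 of the 12 member windows. Those of Cyp26b1 lie at chr6:84593868-84593876, positions -66 to -58 relative to the start, and those of Aldh1a2 at chr9:71215590-71215598, positions -199 to -191. Both are shown in capitals with flanking bases, because the knockout is named for AP2gamma. The chromosome 6 stretch is chr6:84593857-84593886 (minus strand) and the chromosome 9 stretch is chr9:71215580-71215609 (plus strand). The Cyp26b1 window belongs to a transcript start inside the gene's annotated span (84571414 to 84593908), and its match lies inside that span too.
Cyp26b1: gccacagccaGCCTGGGGCactgcccatac
Aldh1a2: tcgcggggctGCCATCGGCcagcgcggtcc
The 250 bases before the starts of Crabp1 (chr9:54764498-54764747, plus strand) and Rorb (chr19:19111197-19111446, minus strand) are shown because these were the members that passed the test between regions. Neither held any of the 3 motifs, so no letters are in capitals.
Crabp1: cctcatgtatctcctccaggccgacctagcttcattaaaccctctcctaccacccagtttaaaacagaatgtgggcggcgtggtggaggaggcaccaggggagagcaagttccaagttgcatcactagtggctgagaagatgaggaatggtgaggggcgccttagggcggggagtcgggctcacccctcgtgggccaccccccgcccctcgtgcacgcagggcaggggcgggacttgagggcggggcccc
Rorb: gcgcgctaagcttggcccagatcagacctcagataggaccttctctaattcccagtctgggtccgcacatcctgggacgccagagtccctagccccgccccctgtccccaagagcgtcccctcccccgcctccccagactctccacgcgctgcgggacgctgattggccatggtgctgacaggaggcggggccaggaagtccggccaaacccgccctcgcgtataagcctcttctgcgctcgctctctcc

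Between regions, Crabp1 was higher in caudal cortex and Rorb was higher in rostral cortex, and these were the members that passed the test. Averaged over both genotypes, Crabp1 was 2.26-fold higher caudally and Rorb probe set 1439862_at was 2.71-fold higher rostrally. Crabp2, both other Rorb probe sets and Stra6 had higher rostral means, and Cyp26b1 a higher caudal mean, without passing. The test was limma with 1 mean per group over all 12 arrays, and a probe set was called at a Benjamini-Hochberg adjusted p of at most 0.05 over the 21288 probe sets tested. On this rule 2 of the 7 tested member probe sets were called, against 2.81% of all tested (599 probe sets, 0.883% higher and 1.93% lower caudally). The median difference of the 7 was -0.61, against -0.01 over all tested. The members share genes and were tested because they were bright enough in some group, so the count is a description. In these pieces of tissue, fewer cells of a type and less RNA per cell cannot be told apart.

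Within WT alone and within KO alone, no member probe set was called by limma, where 0.446% and 0.437% of all probe sets were. At an unadjusted p of at most 0.05, 5 of 7 passed in WT and 3 of 7 in KO, against 8.86% and 11.3% of all tested. The caudal and rostral arrays did not overlap for 5 of 7 member probe sets in WT (12.9% of all tested) and 3 of 7 in KO (19% of all tested). In WT these were Crabp1, Cyp26b1, Stra6 and Rorb 1425162_at and 1439862_at. In KO they were Crabp2 and Rorb 1439862_at and 1455799_at. Rorb 1439862_at was without overlap in both genotypes, which held for 3.99% of all tested.

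**Figure D1:**
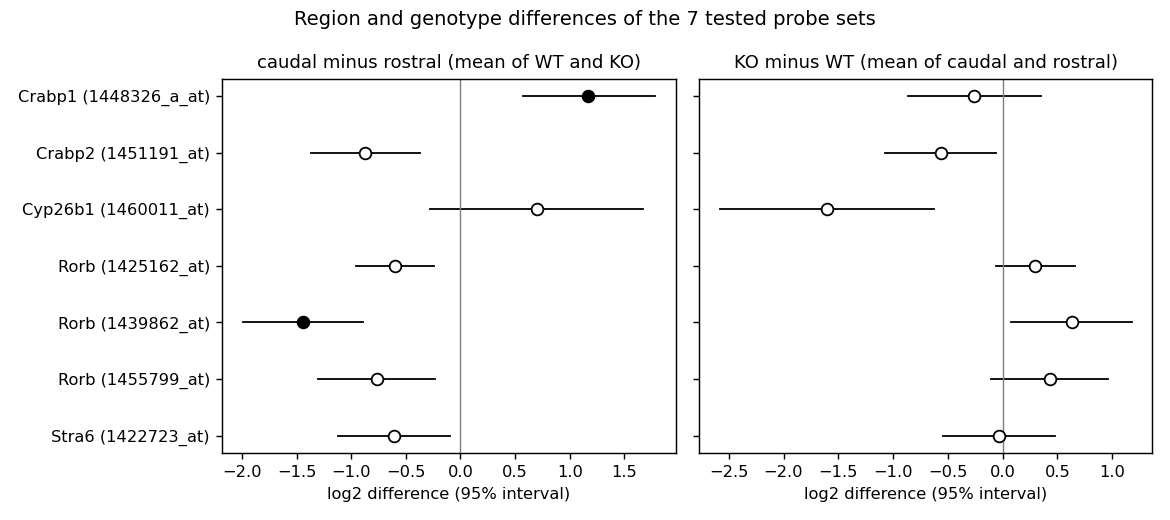
Differences between caudal and rostral (left, mean of both genotypes) and between KO and WT (right, mean of both regions) on the log2 scale for the 7 tested probe sets, with 95% intervals from limma; filled points mark adjusted p of at most 0.05. Crabp1 lies at 1.17 and Rorb 1439862_at at -1.44 on the left, and on the right Cyp26b1 lies farthest from 0 at -1.60, with no filled point.

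AP2gamma knockout changed no member past the test. No member probe set was called in caudal KO against caudal WT, in rostral KO against rostral WT, in the average of both regions or in the difference between the regional effects by limma. In these 4 comparisons the background was 0%, 0%, 0.0141% (3 probe sets) and 0% of 21288. At an unadjusted p of at most 0.05 the counts were 3 of 7 in caudal cortex (3.88% of all tested), 1 of 7 in rostral cortex (6.52%), 3 of 7 in the average (7.15%) and 0 of 7 for the difference of the effects (2.95%). The 3 in the average were Cyp26b1, Crabp2 and Rorb 1439862_at.

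Aldh1a2 encodes the main retinaldehyde dehydrogenase of the embryo, and its probe set 1422789_at (chromosome 9, 71215789 to 71296243, GRCm38.p6) stayed below the table's median of 5.21 on all 12 arrays. Caudal WT arrays read 2.22, 1.02 and 1.07, and caudal KO arrays 0.64, 1.05 and 3.76. Rostral WT arrays read 1.25, 3.17 and 0.46, and rostral KO arrays 3.06, 0.74 and 4.10. All 4 groups overlapped. The highest value, 4.10, was on rostral KO animal 15, the array with the high meningeal markers; their part in this value was not tested. Fitted without the filter on low values, Aldh1a2 differed between KO and WT by 0.69 ± 0.73 (SE, limma adjusted p = 0.92) and between caudal and rostral by -0.50 ± 0.73 (adjusted p = 0.87).

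Aldh1a3 encodes a related dehydrogenase, known in the embryo from the eye and olfactory region and the lateral ganglionic eminence. Its 3 probe sets (chromosome 7, 66390892 to 66427477) were also below the table's median on all 12 arrays. For 1448789_at, rostral KO arrays read 4.08, 3.99 and 3.69, and caudal KO arrays 0.44, 0.84 and 3.18. In WT the same probe set read 4.42, 0.39 and 2.06 rostrally and 1.54, 1.72 and 1.13 caudally. The rostral KO arrays were thus close together and above the caudal KO arrays, while the WT arrays overlapped. Between the regions in KO, 19% of the tested probe sets did not overlap, and no share was computed for those not tested.

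For Aldh1a3 1417642_at, rostral KO arrays (4.00, 3.74 and 3.75) also lay above caudal KO arrays (3.52, -0.20 and 2.86), and WT arrays read 3.66, 4.28 and 3.26 rostrally and 3.68, 3.17 and 2.11 caudally. The third probe set, 1427395_a_at, went the other way in KO, with 2.41, 1.07 and 1.19 rostrally and 2.29, 2.45 and 2.91 caudally, beside 2.85, 2.38 and 2.58 in rostral WT and 1.92, 2.40 and 2.32 in caudal WT. Without the filter, caudal minus rostral in KO was -2.44 ± 0.93 for 1448789_at (SE, limma adjusted p = 0.44), -1.77 ± 0.81 for 1417642_at (adjusted p = 0.56) and 0.99 ± 0.57 for 1427395_a_at (adjusted p = 0.67). The probe sets of Aldh1a3 therefore disagreed in sign and none was called.

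**Figure D2:**
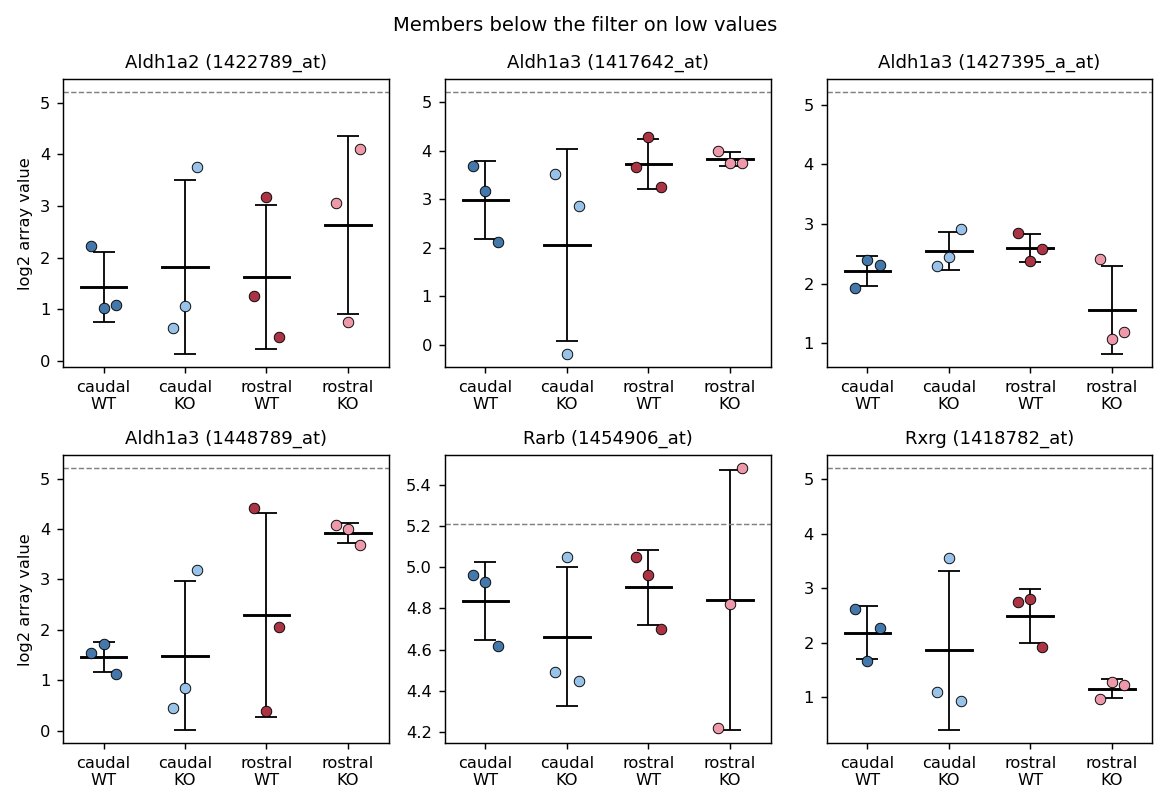
log2 values by array of the 6 member probe sets that were not tested, in the 4 groups of 3 arrays; bars are the mean and SD, the dashed line is the table's median of 5.21, and the vertical scales differ between panels. Apart from 1 rostral KO array of Rarb at 5.48, all values lie below the line.

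Stra6 encodes a cell surface receptor that takes up retinol from its carrier Rbp4. Its probe set 1422723_at (chromosome 9, 58063793 to 58154004) was above the table's median on 8 arrays, all 6 rostral ones among them. Caudal WT arrays read 4.46, 5.37 and 5.07, caudal KO 5.46, 4.90 and 4.55, rostral WT 5.48, 5.84 and 5.49, and rostral KO 5.27, 5.44 and 5.93. In WT the rostral arrays lay above the caudal ones, by a narrow gap, and in KO the regions overlapped. Caudal minus rostral was -0.61 ± 0.24 over both genotypes (SE, 95% interval -1.12 to -0.10, adjusted p = 0.24). Raising values under 5.21 to 5.21 before the fit left -0.29. The KO minus WT difference was 0.00 ± 0.33 in caudal and -0.06 ± 0.33 in rostral cortex, with 95% intervals of -0.72 to 0.72 and -0.78 to 0.66.

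Crabp1, a cytoplasmic retinoic acid binding protein, was measured by probe set 1448326_a_at (chromosome 9, 54764748 to 54773110), which was above the table's median on all 12 arrays. Caudal WT arrays read 7.89, 6.57 and 7.16, and caudal KO arrays 7.42, 7.34 and 5.94. Rostral WT arrays read 5.78, 6.09 and 6.09, and rostral KO arrays 6.25, 5.67 and 5.39. All caudal WT arrays lay above all rostral WT arrays, and in KO the caudal animal 13, the array with low thalamic and caudal cortex markers, lay among the rostral arrays; their part in its value was not tested. Means ranked from caudal WT (7.21 ± 0.66 SD, n = 3) through caudal KO (6.90 ± 0.83) and rostral WT (5.98 ± 0.18) to rostral KO (5.77 ± 0.44), and each group overlapped the next.

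Caudal minus rostral for Crabp1 was 1.17 ± 0.28 over both genotypes (SE, 95% interval 0.57 to 1.78, limma adjusted p = 0.042). It was 1.22 ± 0.40 in WT (adjusted p = 0.28) and 1.13 ± 0.40 in KO (adjusted p = 0.29). Animals 1 to 12 gave 1.36, and animals 13 to 16, 1 array a group, gave 0.81. The call was close to the threshold: it held in 12 of 24 alternatives, with adjusted p from 0.0064 to 0.11. It was lost on leaving out any of caudal WT animals 4 or 14, caudal KO animals 1 or 2, the 3 rostral WT animals, or rostral KO animals 8 or 15, with differences of 1.00 to 1.20, and also without both Xist-high arrays (1.36, adjusted p = 0.054). KO minus WT was -0.31 ± 0.40 in caudal and -0.21 ± 0.40 in rostral cortex (95% intervals -1.16 to 0.55 and -1.07 to 0.64). In caudal cortex it was 0.15 in animals 1 to 12 and -1.22 between animals 13 and 14.

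Crabp2, the binding protein known to carry retinoic acid to its nuclear receptors, had the opposite regional order. Its probe set 1451191_at (chromosome 3, 87948693 to 87953372) was above the table's median on all 12 arrays. Caudal WT arrays read 6.48, 7.07 and 5.82, caudal KO 6.31, 5.66 and 5.40, rostral WT 7.29, 7.72 and 6.66, and rostral KO 6.67, 6.82 and 6.80. The KO arrays of the regions did not overlap, and the WT arrays did, with caudal WT animal 6 the highest caudal array. Caudal minus rostral was -0.87 ± 0.23 (SE, 95% interval -1.37 to -0.37, adjusted p = 0.072), a 1.83-fold higher rostral level that did not pass the test. The adjusted p was 0.012 with animals 13 to 16 as an additive block and 0.016 with pairs of animal numbers as a random block, where 5.46% and 5.84% of all probe sets were called. Without caudal WT animal 6, the array with high choroid plexus markers, it was 0.03 and the difference -1.02; the part of these markers was not tested. The threshold was passed in 5 of 24 alternatives, with limma adjusted p from 0.012 to 0.17. Animals 1 to 12 gave -0.75, and animals 13 to 16 gave -1.12.

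Crabp2 was lower in KO by 0.67 ± 0.33 in caudal and by 0.46 ± 0.33 in rostral cortex as point values, with overlapping arrays in both (limma adjusted p = 1 and 0.86). The average over regions was -0.56 ± 0.23 (SE, unadjusted p = 0.032, adjusted p = 0.66). In rostral cortex it was -0.76 in animals 1 to 12 and 0.14 between animals 15 and 16.

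**Figure D3:**
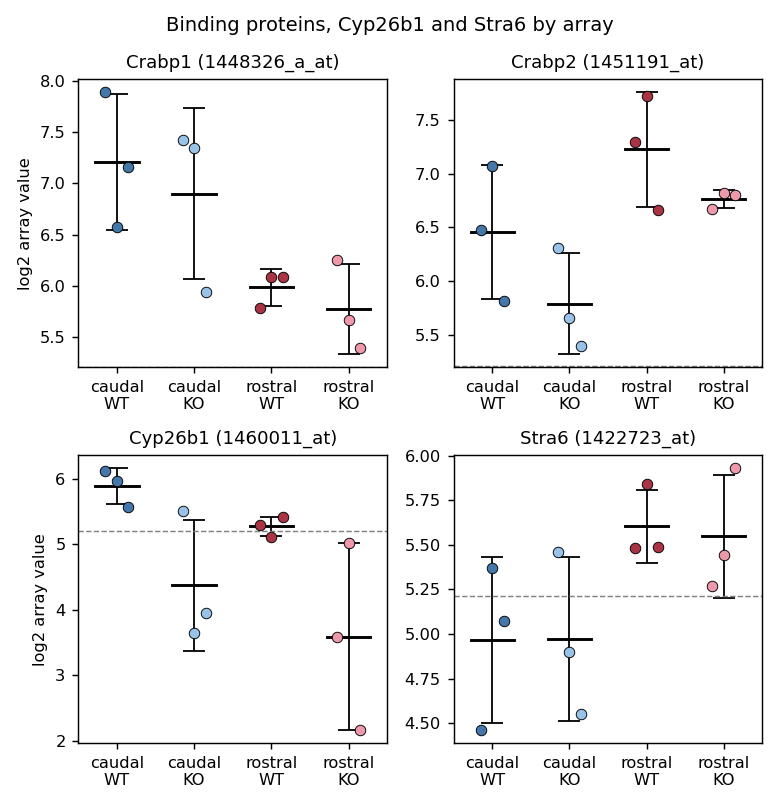
log2 values by array of Crabp1, Crabp2, Cyp26b1 and Stra6 in the 4 groups of 3 arrays; bars are the mean and SD, the dashed line is the table's median of 5.21, and the vertical scales differ between panels. Crabp1 runs from 5.94 to 7.89 in caudal and 5.39 to 6.25 in rostral arrays, and the KO arrays of Cyp26b1 lie below the WT arrays of the same region.

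Cyp26b1, an enzyme that clears retinoic acid, had the largest measured difference of the tested members between genotypes, which it no longer had with low values raised. On its probe set 1460011_at (chromosome 6, 84571414 to 84593908), caudal WT arrays read 6.12, 5.97 and 5.58, and caudal KO arrays 5.51, 3.65 and 3.96. Rostral WT arrays read 5.29, 5.12 and 5.42, and rostral KO arrays 3.59, 5.02 and 2.16. In each region the highest KO array was still under the lowest WT array, which held in this direction in both regions for 0.681% of all tested probe sets. It was the one tested member without overlap between genotypes in caudal cortex (7.61% of all tested) and in rostral cortex (12.6%). Cyp26b1 passed the filter on low values mainly through WT. Above the table's median lay 3 caudal WT and 2 rostral WT arrays, against 1 caudal KO and 0 rostral KO arrays. The part of the filter in how Cyp26b1 compares with these shares was not tested, so the comparison is a description.

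The KO minus WT difference of Cyp26b1 was -1.52 ± 0.64 in caudal cortex (SE, limma adjusted p = 1) and -1.69 ± 0.64 in rostral cortex (adjusted p = 0.71). The average was -1.60 ± 0.45, a 3.04-fold lower measured level with a 95% interval of -2.58 to -0.63, an unadjusted p of 0.0036 and an adjusted p of 0.48. Much of this size lay in values under the table's median, where 6 of the 12 arrays fell. With values raised to 5.21 the average difference was -0.34, with -0.58 in caudal and -0.10 in rostral cortex, beside averages of -0.56 for Crabp2 and 0.37 for Rorb 1439862_at. All rostral KO arrays were at or under 5.21, so that rostral WT was at least 1.05-fold higher. Leaving out single arrays gave averages from -1.96 to -1.25 and rostral differences from -2.40 to -0.97. The value nearest 0 in both was that without rostral KO animal 15, which had the lowest Cyp26b1 value (2.16). This array stood apart in the meningeal and the other markers named above, and their part was not tested.

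Between regions Cyp26b1 differed by 0.70 ± 0.45 (SE, adjusted p = 0.52), higher caudally. It was 0.34 without rostral KO animal 15, also 0.34 with low values raised, and up to 1.06 without other single arrays. Caudal WT lay above rostral WT without overlap, and the KO groups overlapped. The difference between the KO effects of the regions was 0.17 ± 0.91, with a 95% interval of -1.79 to 2.12, and it turned to -0.48 with low values raised and to -0.55 without rostral KO animal 15.

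Rarb encodes a retinoic acid receptor whose gene is itself a classical retinoic acid target. Its probe set 1454906_at (chromosome 14, 16430839 to 17082331) read 4.96, 4.93 and 4.62 in caudal WT, 4.49, 5.05 and 4.45 in caudal KO, 5.05, 4.96 and 4.70 in rostral WT, and 4.22, 4.82 and 5.48 in rostral KO. The highest of these, on rostral KO animal 15, was the one value above the table's median, and the 4 groups overlapped. Without the filter, Rarb differed by -0.12 ± 0.26 between KO and WT (SE, limma adjusted p = 0.97) and by -0.12 ± 0.26 between caudal and rostral (adjusted p = 0.91).

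Rxrg encodes one of the RXR partner receptors and is known in the forebrain from the striatum. Its probe set 1418782_at (chromosome 1, 167598362 to 167639623) was below the table's median on all 12 arrays. Caudal WT arrays read 2.62, 1.66 and 2.28, caudal KO 1.09, 3.55 and 0.94, rostral WT 2.75, 2.81 and 1.92, and rostral KO 0.96, 1.29 and 1.22. The rostral KO arrays lay below the rostral WT arrays without overlap, at values in the lowest range of the array. Of the tested probe sets, 12.6% did not overlap between these groups, and no share was computed for those not tested. Without the filter that difference was -1.34 ± 0.72 (SE, limma adjusted p = 0.92). No member under the filter was called in any of the 7 comparisons fitted this way, where 0%, 0%, 0.00286% and 0% of 34958 probe sets were called in the 4 genotype comparisons and 0.197%, 0.223% and 1.46% between regions in WT, in KO and on average.

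Rorb, a nuclear receptor gene of the ROR family, had the smallest adjusted p between regions of the tested members. It lies on chromosome 19, 18930609 to 19111196, and on all 3 probe sets the mean was lowest in caudal WT, higher in caudal KO, higher again in rostral WT and highest in rostral KO, with overlap between neighbours in that order. Probe set 1439862_at read 4.20, 4.55 and 5.27 in caudal WT and 5.05, 5.39 and 6.56 in caudal KO. It read 6.77, 6.28 and 6.39 in rostral WT and 6.75, 6.78 and 6.68 in rostral KO. Within each genotype the caudal and rostral arrays did not overlap. Caudal KO animal 13, at 6.56, lay below all rostral KO arrays but above rostral WT animals 12 (6.28) and 16 (6.39). This was the array with low thalamic and caudal cortex markers, and their part in its value was not tested.

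Caudal minus rostral for Rorb 1439862_at was -1.44 ± 0.25 (SE, 95% interval -1.99 to -0.89, limma adjusted p = 0.0086). It was -1.81 ± 0.36 in WT (adjusted p = 0.051) and -1.07 ± 0.36 in KO (adjusted p = 0.26), and -1.85 in animals 1 to 12 against -0.62 in animals 13 to 16. The averaged difference passed the threshold in all 23 alternatives in which this probe set was tested, with adjusted p from 0.00092 to 0.039. With low values raised to 5.21 it was -1.13, and without rostral KO animal 15 it was -1.45 (adjusted p = 0.021).

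The other Rorb probe sets pointed the same way without passing. Probe set 1425162_at read 5.08, 5.98 and 5.57 in caudal WT, 5.99, 5.83 and 6.42 in caudal KO, 6.35, 6.27 and 6.51 in rostral WT, and 6.34, 6.52 and 6.47 in rostral KO. Its caudal minus rostral difference was -0.60 ± 0.17 (SE, limma adjusted p = 0.083). Probe set 1455799_at read 4.15, 4.64 and 5.60 in caudal WT, 5.41, 5.28 and 5.42 in caudal KO, 5.72, 5.28 and 6.14 in rostral WT, and 5.77, 6.08 and 6.12 in rostral KO, with a difference of -0.76 ± 0.25 (adjusted p = 0.14), or -0.49 with low values raised. Without caudal WT animal 6 the adjusted p of 1425162_at was 0.033. With animals 13 to 16 as a block the adjusted p-values were 0.044 and 0.045, and with pairs of animal numbers as a random block 0.031 and 0.046. In these block fits 5.46% and 5.84% of all probe sets were called. Over all alternatives, 1425162_at passed in 4 of 24, with limma adjusted p from 0.026 to 0.19. Probe set 1455799_at passed in 3 of 23, with adjusted p from 0.034 to 0.28.

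In KO, Rorb means were above WT on all 3 probe sets. In caudal cortex the differences were 0.99 ± 0.36 for 1439862_at (SE, unadjusted p = 0.016), 0.54 ± 0.24 for 1425162_at (unadjusted p = 0.04) and 0.57 ± 0.35 for 1455799_at (unadjusted p = 0.12), each with a limma adjusted p of 1 and overlapping arrays. With low values raised to 5.21 these became 0.49, 0.49 and 0.03, and without caudal KO animal 13 they were 0.55, 0.37 and 0.55. In rostral cortex they were 0.26 ± 0.36, 0.06 ± 0.24 and 0.28 ± 0.35. The regional effects were not shown to differ: the difference for 1439862_at was 0.74 ± 0.51, with a 95% interval of -0.37 to 1.84 and an adjusted p of 1.

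**Figure D4:**
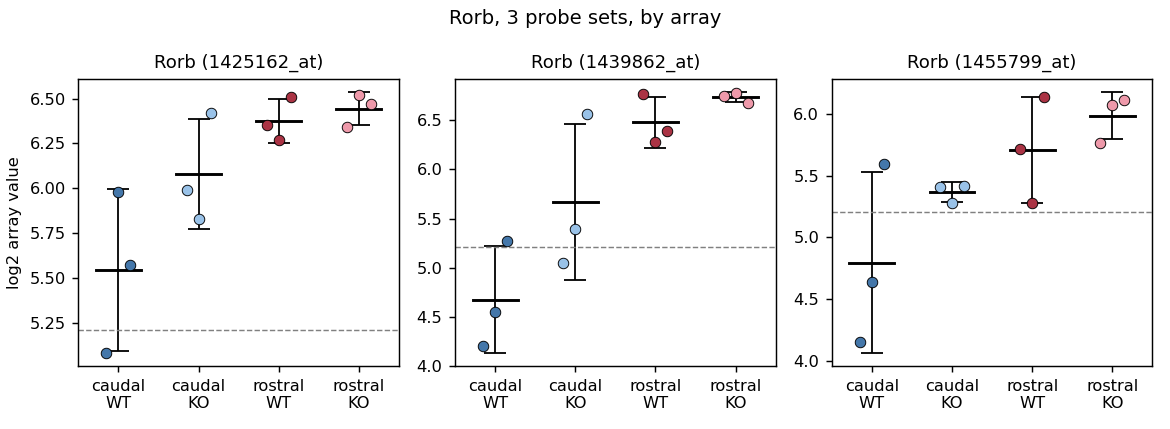
log2 values by array of the 3 Rorb probe sets in the 4 groups of 3 arrays; bars are the mean and SD, the dashed line is the table's median of 5.21, and the vertical scales differ between panels. On 1439862_at caudal WT runs from 4.20 to 5.27, caudal KO from 5.05 to 6.56, and all rostral arrays lie between 6.28 and 6.78.

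Markers of the ganglionic eminence and striatum moved with region as well. Over the 14 of 17 listed genes that were tested, their mean ran from 5.18 to 6.06 on the caudal arrays and from 6.49 to 7.57 on the rostral arrays. Caudally 12 of the 14 had a lower value and 4 were called lower, where 1.93% of all tested probe sets were, namely Isl1 (-4.17 ± 0.50 SE), Six3 (-1.90 ± 0.35), Dlx1 (-1.16 ± 0.24) and Dlx2 (-1.06 ± 0.18), all transcription factors of the ventral forebrain. Isl1, at 1.86 to 3.92, was below the table's median on every caudal array. Their part in the higher rostral values of Rorb, Crabp2 and Stra6 was not tested. Markers of the rostral cortex moved the same way, with 5 of 6 tested called lower caudally, among them Etv5 (-1.24 ± 0.15), a target of FGF signalling.

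Other genes of the pathway were described from lists of synthesis, breakdown, receptors, cofactors and response, each gene by its tested probe set of highest mean. Between regions, averaged over both genotypes, none of 9 tested genes of synthesis and retinoid handling was called (23 listed, smallest adjusted p = 0.48 by limma, none with unadjusted p of at most 0.05), and their median was -0.07 against -0.01 over all tested probe sets. None of 4 tested RAR, RXR and ROR genes outside the members was called, with Rxrb at -0.23 ± 0.11 (SE, adjusted p = 0.34) and Rora at 0.24 ± 0.21. No gene of breakdown was bright enough to be tested.

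Among 10 tested nuclear receptor cofactors 1 was called, and among 7 tested response genes 2 were called, all lower caudally, where 1.93% of all tested probe sets were. Nrip1, a corepressor of nuclear receptors, is in both lists. Its values were 7.37, 7.66 and 7.94 in caudal WT, 7.67, 7.80 and 8.24 in caudal KO, 8.61, 8.03 and 8.86 in rostral WT, and 8.49, 8.42 and 8.81 in rostral KO. The regions did not overlap in either genotype (3.99% of all tested probe sets), and caudal minus rostral was -0.76 ± 0.16 (SE, limma adjusted p = 0.02). Cbln2, a synapse organiser whose cortical expression is known to depend on retinoic acid, differed by -1.26 ± 0.26 (adjusted p = 0.021). Its caudal values reached 7.27 in WT and 5.96 in KO, against at least 6.63 and 7.33 rostrally, so that the WT arrays overlapped and the KO arrays did not. The list medians were 0.10 for cofactors and -0.05 for response genes, against a median of -0.01 and quartiles of -0.14 and 0.11 over all tested probe sets.

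Between genotypes no gene of these lists was called. In the average over both regions 1 gene in each of the 4 tested lists had an unadjusted p of at most 0.05 (7.15% of all tested probe sets), and the medians were 0.01 for synthesis and handling, 0.13 for receptors, 0.06 for cofactors and -0.15 for response genes, against -0.01 over all tested. Rbp4, the retinol carrier bound by Stra6, was lower in KO as a point value by 1.04 ± 0.25 (SE, unadjusted p = 0.0013, limma adjusted p = 0.4). Its arrays read 7.09, 5.89 and 6.11 in caudal WT, 5.17, 5.28 and 4.14 in caudal KO, 6.23, 5.98 and 6.08 in rostral WT, and 5.80, 5.64 and 5.13 in rostral KO. As with Cyp26b1, KO and WT arrays did not overlap in either region (0.681% of all tested probe sets, lower in KO).

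Adh7, an alcohol dehydrogenase able to oxidise retinol, was at -1.14 ± 0.57 in KO (SE, limma adjusted p = 0.72). Its caudal KO arrays read 5.20, 4.11 and 0.84, and the other 3 groups ran from 4.53 to 5.56, so that animal 13 carried much of this size. Meis2, a homeobox gene known to respond to retinoic acid, was at 0.22 ± 0.06 (adjusted p = 0.48), Rxrb at 0.25 ± 0.11 (adjusted p = 0.67) and the coactivator gene Ncoa2 at 0.18 ± 0.08 (adjusted p = 0.69). None passed.

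**Figure D5:**
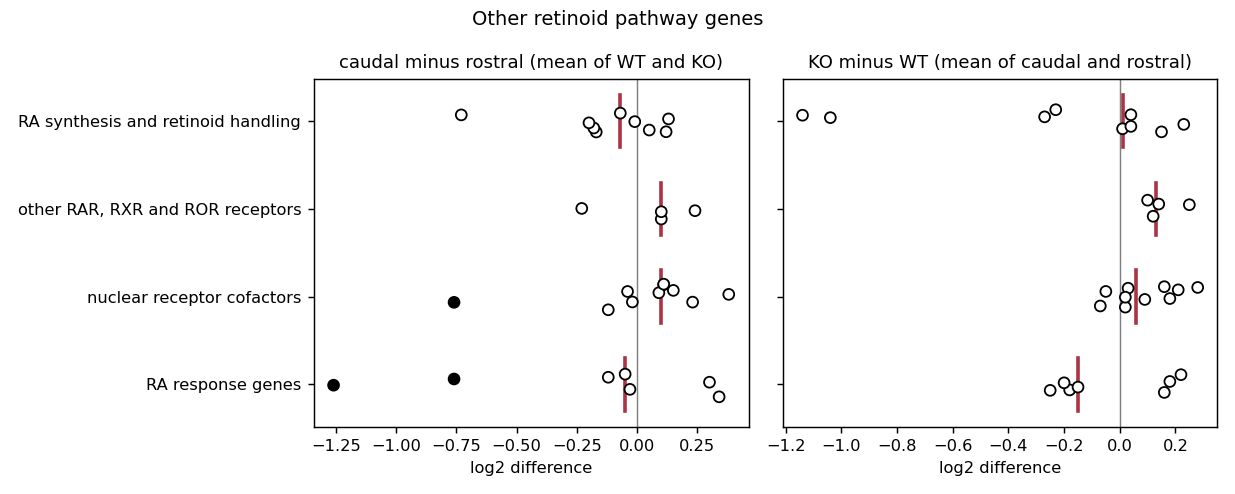
Differences on the log2 scale of the tested genes of 4 retinoid lists that are no members, between caudal and rostral (left) and KO and WT (right); each circle is 1 gene, filled where called, and bars are list medians. Cbln2 at -1.26 and Nrip1 at -0.76 (in both of the lower lists) are filled on the left, and no gene is filled on the right, where Adh7 (-1.14, with 1 caudal KO array at 0.84) and Rbp4 (-1.04) lie lowest.

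The genes whose pattern over the 12 arrays was most like each tested member were found by Pearson correlation of log2 values, as a description that includes the regional differences themselves. For Crabp1 they were Slc26a7 (r = 0.948), Cachd1 (0.945) and Romo1 (0.938). For Rorb, on probe set 1425162_at, they were 1700086L19Rik (r = 0.959), Slc22a23 (0.946) and Cap2 (0.938). For Crabp2 they were Nt5c2 and E130114P18Rik (r = 0.960 each) and the aldehyde dehydrogenase Aldh2 (0.927), and for Cyp26b1 they were Pam (r = 0.910), Pdrg1 (0.909) and the neuronal transcription factor Neurod1 (0.904). For Stra6 they were Spry1 (r = 0.900), an FGF feedback gene from the rostral cortex list, Six3 (0.899) from the ganglionic eminence list, and Pdlim5 (0.895).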

How the data were processed

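The deposited values are log2 signals, 1 per probe set and array, from -3.81 to 14.02; the scale was read from the values, and the normalisation behind it is not given in the sources used here. The genes of probe sets came from the platform annotation, and 34958 probe sets name 1 gene. Probe sets above the table's median (5.21) on at least 3 of 12 arrays were tested: 21288 of 11785 genes. limma 3.58.1 in R 4.3.3 fitted 1 mean per group, moderated by eBayes along the mean level (degrees of freedom: 8 residual, 5 prior), 7 comparisons and Benjamini-Hochberg adjustment over all tested. The fit was tested on simulated data. The number of arrays limits the precision.

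The members and lists were chosen with earlier results of these data known. Named were all members, list genes past the threshold (up to 4) or otherwise the 2 of smallest p, markers that moved with a member, and the 3 genes most correlated with each tested member. Coordinates are those of RefSeq genes on GRCm38.p6. Alternatives covered normalisation, filters, moderation, array weights, groups of animals and single arrays left out.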

Additional observations from a re-analysis of the deposited data

How the results depend on the processing

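Among 1190 member results under 14 alternatives and 12 fits without 1 array, 1122 kept the side of the threshold and were not counted as reversed. A difference reported as 0.00 has no sign to reverse. Stra6 KO minus WT in caudal cortex was such a difference, and it ran from -0.25 to 0.27. No member was called between genotypes under any of them. Between regions in WT the count of called member probe sets, 0, became 1 with quantile normalisation, median centring, robust moderation and array weights. It also became 1 with animals 13 to 16 as a block, animals 1 to 12 only and number pairs as a random block. Without single arrays it ran from 0 to 1. In KO it became 2 with array weights. In the average it was 2, became 1 with no filter, 1 probe set per gene, no intensity trend or without WT animals 6 and 12, became 4 with array weights and 5 with the block of animals 13 to 16 or of number pairs, and ran from 1 to 4 without single arrays. The causes were not tested.

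Uncalled differences changed sign. For animals 1 to 12 only, Crabp1 KO minus WT was 0.15 caudally, 0.03 rostrally and 0.09 on average, and the difference of its regional effects was 0.12 (0.08 with array weights). Without WT animals 6 and 12, Stra6 KO minus WT was 0.06 rostrally and 0.13 on average. The difference of the regional effects of Cyp26b1 was -0.48 with low values raised, -0.51 with array weights and -0.56 for animals 1 to 12, and that of Rorb 1455799_at was -0.25 with low values raised. Without single arrays, Crabp1 KO minus WT ran from -0.62 to 0.18 caudally, and Stra6 from -0.25 to 0.08 rostrally and from -0.15 to 0.08 on average. The difference of the regional effects ran from -0.41 to 0.39 for Crabp1, -0.53 to 0.10 for Crabp2, -0.55 to 0.89 for Cyp26b1, -0.19 to 0.27 for Stra6 and -0.02 to 0.70 for Rorb 1455799_at.

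Over all probe sets, calls between regions on average ran from 343 to 1243 (599 as reported), in WT from 20 to 330 (95), in KO from 26 to 565 (93), and between genotypes on average from 0 to 26 (3). With a filter at 7.55 no member remained to be tested. No paired analysis was possible because the groups share no animal numbers; the random block above pairs numbers by their place in the numbering (correlation 0.269), which the labels do not state. Values near or under 5.21 limit what can be said of Aldh1a2, Aldh1a3, Rarb, Rxrg, Stra6, Cyp26b1 (mainly in KO) and Rorb (in caudal WT).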
